A study of Homo sapiens with 6 samples.

Results

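The APOBEC3 genes B, C, D, F, G and H were examined in Raji cells whose OBF1 transcript had been lowered. They were taken by symbol and matched through numeric NCBI gene identifiers; 6 of the 23459 rows of the count table belong to them. Raji is a human Burkitt's lymphoma line that carries Epstein-Barr virus and derives from germinal centre B cells. All cells carried an integrated pLKO.1 lentiviral hairpin, after 5 days with virus and 7 days under 3 μg/ml puromycin. In 3 libraries the hairpin was OBF1sh1, directed at OBF1 (gene POU2AF1), a B cell coactivator of the Oct factors. In the other 3 libraries it was the non-target hairpin SHC002. OBF1 was targeted by a single hairpin, so loss of OBF1 and any other effect of that hairpin cannot be told apart. Nothing in the labels states that the 3 libraries of a hairpin were separate cultures; the p-values then reflect only their spread, possibly a technical one.

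APOBEC3 enzymes are cytidine deaminases of the cell's defence against retroviruses and mobile elements. They convert cytosine to uracil in single-stranded DNA, which mutates the copied viral genome or leads to its destruction. APOBEC3C and APOBEC3H have a single deaminase domain, whereas APOBEC3B, APOBEC3D, APOBEC3F and APOBEC3G have a pair of them. The genes lie next to each other on chromosome 22 and arose by duplication, so that parts of their transcripts are near copies. Lymphocytes are among the cells in which several of them are known to be transcribed, and APOBEC3B is known as a source of mutations in tumours.

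Total counts lay between 29569281 and 32612429 per library. Levels are given as CPM, the reads of a gene per 1000000 reads of its library after scaling by edgeR's trimmed mean of M values. The targeted transcript POU2AF1 was at 244, 241 and 241 CPM in OBF1 shRNA libraries, against 512, 516 and 512 CPM in control shRNA libraries. Its partner gene POU2F2, encoding Oct2, rose 2.50-fold, and POU2F1, encoding Oct1, fell 1.19-fold (adjusted p in edgeR's quasi-likelihood test = 4.81e-18 and 1.54e-05). The 6 B cell markers, among them MS4A1 and PAX5, were all detected. Of 12010 genes that passed the low-count filter, 75.4% were called at an adjusted p under 0.05, 4508 higher and 4550 lower in OBF1 shRNA cells. With library sizes alone every log2 fold change was lower by 0.11, and the split became 3476 higher and 5778 lower.

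How far reads can be assigned to a single APOBEC3 gene was measured on the GENCODE 29 transcripts (GRCh38), since the counting rule for shared reads is not given in the sources used here. Of the 50-base stretches in APOBEC3H transcripts, 0% occurred in the transcripts of any other gene, and in APOBEC3C it was 1.16%. For APOBEC3G 19.1% were shared, 16.9% with APOBEC3F, and for APOBEC3F 21.4% were shared, 10.1% with APOBEC3G. For APOBEC3B 38.7% were shared, 25.5% with APOBEC3A and 13.3% with the other examined genes. APOBEC3D had the largest overlap, 85.8%, nearly all of it with the GENCODE gene AL022318.4, while 14.8% was shared with the other examined genes. With stretches of 100 bases the shares were 0% for APOBEC3H and APOBEC3C, 11.3% for APOBEC3G, 12.0% for APOBEC3F, 26.3% for APOBEC3B and 80.2% for APOBEC3D. On these transcripts APOBEC3C and APOBEC3H are thus least exposed to shared reads. APOBEC3B and APOBEC3D share most when all genes are included. With the other examined genes alone, APOBEC3F (21.3% of 50-base stretches) and APOBEC3G (17%) share more than either. Whether AL022318.4 was among the counted genes is not stated in the sources used here, so the exposure of APOBEC3D in the counts is not known.

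Every examined APOBEC3 transcript was higher in OBF1 shRNA cells, by 1.73-fold to 3.84-fold, and for each gene the lowest OBF1 shRNA library lay above the highest control library. Of all tested genes, 37.5% were called higher and 37.9% lower, 38.0% were higher with groups that did not overlap, and 6.59% were called higher by at least 2-fold. The 5 genes other than APOBEC3H passed the low-count filter in all 6 libraries. APOBEC3H passed it through the OBF1 shRNA libraries only, so its inclusion in the test already required a difference. In bulk RNA, more transcript per cell and more cells carrying the transcript cannot be told apart.

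**Figure D1:**
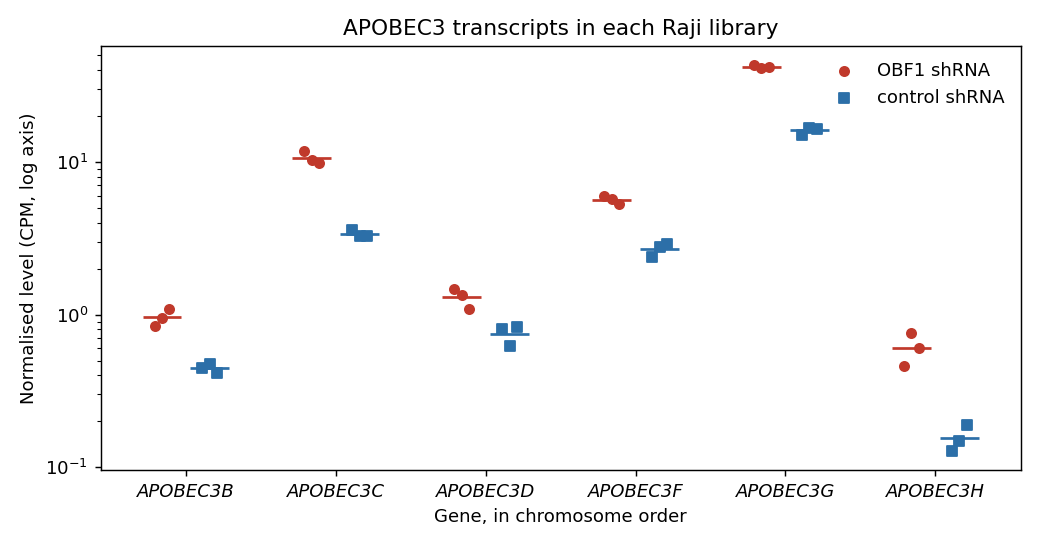
Normalised level of each APOBEC3 transcript in CPM on a log axis, with 1 point per library (OBF1 shRNA as red circles, control shRNA as blue squares) and a line at each group's mean. The OBF1 shRNA points lie above the control points for every gene, and levels span from 0.128 CPM for APOBEC3H in control replicate 1 to 42.8 CPM for APOBEC3G in OBF1 shRNA replicate 1.

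APOBEC3G, the enzyme best known for entering HIV particles that lack the viral protein Vif and editing their DNA copies, was the most abundant. It was at 42.8, 41.0 and 41.8 CPM in OBF1 shRNA libraries and at 15.0, 16.7 and 16.4 CPM in control libraries. The groups lay far apart, with a spread of about 0.92 CPM within each. APOBEC3G rose 2.61-fold (log2 fold change 1.38, SE 0.05, adjusted p in edgeR's quasi-likelihood test = 2.59e-14). Of all tested genes, 4.00% had a higher log2 fold change.

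APOBEC3C, a single-domain enzyme with activity against some retroviruses and mobile elements, was at 11.7, 10.3 and 9.83 CPM in OBF1 shRNA libraries, against 3.59, 3.24 and 3.27 CPM in control libraries. The control libraries lay close together and well below the lowest OBF1 shRNA library. APOBEC3C rose 3.15-fold (log2 fold change 1.65, SE 0.10, adjusted p in edgeR's quasi-likelihood test = 3.18e-11). Only APOBEC3C and APOBEC3G had at least 100 counts in every library, and the fold of APOBEC3C was the larger. APOBEC3C hardly shares 50-base stretches with other genes.

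APOBEC3F, which like APOBEC3G acts on Vif-deficient HIV, was at 5.98, 5.68 and 5.33 CPM in OBF1 shRNA libraries and at 2.37, 2.77 and 2.89 CPM in control libraries. The groups did not overlap. APOBEC3F rose 2.11-fold (log2 fold change 1.08, SE 0.11, adjusted p in edgeR's quasi-likelihood test = 9.57e-08).

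The remaining 3 genes were near the lower limit of what was counted. APOBEC3D, a double-domain enzyme with weaker antiviral activity, had 42, 41 and 34 reads in OBF1 shRNA libraries and 25, 21 and 26 reads in control libraries. It rose 1.73-fold, the smallest change of the family, with a log2 fold change of 0.79 (SE 0.22, adjusted p in edgeR's quasi-likelihood test = 0.0032). Of all tested genes, 9.18% had a higher log2 fold change.

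APOBEC3B, the mainly nuclear enzyme, had 24, 29 and 34 reads in OBF1 shRNA libraries and 14, 16 and 13 reads in control libraries. The summed counts were 87 (95% exact Poisson interval 69.7 to 107) with the OBF1 hairpin and 43 (31.1 to 57.9) with the control hairpin, intervals that cover counting error only. APOBEC3B rose 2.15-fold (log2 fold change 1.10, SE 0.25, adjusted p in edgeR's quasi-likelihood test = 0.000632). The table also has a row for APOBEC3A_B, a fusion of APOBEC3A with APOBEC3B sequence that exists as a separate gene record, and this row was looked at after the values of APOBEC3B were seen. It held 8, 11 and 11 reads in OBF1 shRNA libraries and 2, 9 and 6 in control libraries, too few to be tested. With the reads of both rows added, an alternative chosen after the data were seen, the log2 fold change was 1.05 (SE 0.23, adjusted p in edgeR's quasi-likelihood test = 0.000383). The neighbouring gene APOBEC3A had 0 reads in all 6 libraries.

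APOBEC3H, a single-domain enzyme and the last gene of the cluster, had the largest fold and the fewest reads, 13, 23 and 19 in OBF1 shRNA libraries and 4, 5 and 6 in control libraries. The sums were 55 reads (95% exact Poisson interval 41.4 to 71.6) with the OBF1 hairpin and 15 reads (8.40 to 24.7) with the control hairpin. Its 3.84-fold higher level (log2 fold change 1.94, SE 0.37, adjusted p in edgeR's quasi-likelihood test = 0.000132) carries the widest error of the family. No control library reached the low-count filter, so APOBEC3H was tested through its OBF1 shRNA libraries only. Its call therefore adds no separate support. Among the 1004 tested genes with no more than 189 reads over all libraries, as APOBEC3B, APOBEC3D and APOBEC3H had, 23.6% were called higher.

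**Figure D2:**
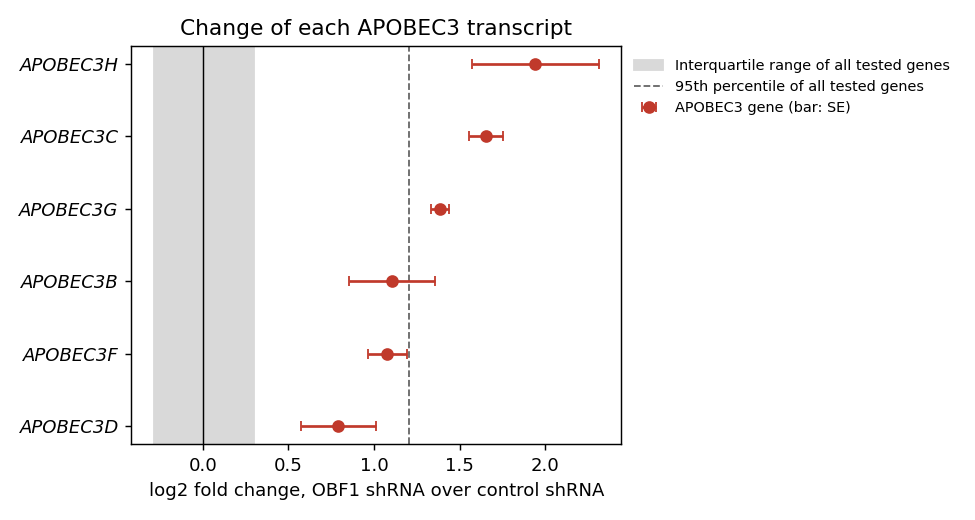
Log2 fold change of each APOBEC3 transcript, OBF1 shRNA over control shRNA, with its standard error as a bar. The grey band is the interquartile range of all 12010 tested genes (-0.29 to 0.30) and the dashed line their 95th percentile (1.20), which APOBEC3H, APOBEC3C and APOBEC3G exceed.

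The stretch before the start of APOBEC3H is shown because this gene had the largest fold; of the 6 genes it is the one in the RefSeq promoter table used here (build GRCh38.p14, plus strand, chr22:39096994-39097243, 55.2% G or C). The 5 others are APOBEC3B, APOBEC3C, APOBEC3D, APOBEC3F and APOBEC3G. The 250 bases are given 5′ to 3′ and end directly before the annotated start.
APOBEC3H: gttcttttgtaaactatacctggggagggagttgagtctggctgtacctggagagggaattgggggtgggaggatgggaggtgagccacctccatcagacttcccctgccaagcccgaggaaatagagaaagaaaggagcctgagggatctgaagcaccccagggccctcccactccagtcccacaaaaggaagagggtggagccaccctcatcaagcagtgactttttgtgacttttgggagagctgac
No letter is in capitals because none of the 5 motifs searched, on both strands and up to 50 bases past the start, had a match. They were the Oct factor octamer ATGCAAAT, a spaced interferon response element, a kappa B element, the cell cycle homology region TTTGAA and an E2F site TTTCCCGC. Among 35116 promoters of this length, 1.77%, 3.57%, 5.13%, 15.2% and 1.63% held them, in that order. The search says only that these letters are not in this window.

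Levels of different genes were compared in TPM, reads per base of gene length scaled to a sum of 1000000 in each library, computed here with the gene lengths deposited by the authors. With the deposited lengths, APOBEC3G averaged 31.2 ± 0.534 TPM (SD, n = 3) and APOBEC3C 24.4 ± 2.24 TPM in OBF1 shRNA libraries, far above the rest. APOBEC3F followed at 2.35 ± 0.142 TPM, APOBEC3B at 1.59 ± 0.195, APOBEC3H at 1.35 ± 0.342 and APOBEC3D at 1.22 ± 0.191 TPM. The range of APOBEC3H overlapped those of APOBEC3B and APOBEC3D, while the lowest APOBEC3B library, at 1.39 TPM, lay just above the highest APOBEC3D library, at 1.38 TPM. In control libraries the order was APOBEC3G at 13.6 ± 0.668 TPM, APOBEC3C at 8.83 ± 0.584, APOBEC3F at 1.27 ± 0.124, APOBEC3B at 0.843 ± 0.0523, APOBEC3D at 0.806 ± 0.127 and APOBEC3H at 0.396 ± 0.0818 TPM. There the ranges of APOBEC3B and APOBEC3D overlapped, while APOBEC3H lay below both. Among all tested genes, 57.4% had a lower mean TPM than APOBEC3G with the OBF1 hairpin, and 35.3% with the control hairpin.

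Summed over the 6 genes, APOBEC3 transcripts were at 64.9, 61.7 and 59.7 TPM in OBF1 shRNA libraries and at 25.6, 25.6 and 26.3 TPM in control libraries, a ratio of means of 2.41. The sum does not depend on how reads were divided between the 6 genes, apart from the length scaling, and its ratio in CPM was 2.61. It does depend on whether shared reads were dropped or counted for genes outside the 6, which is not known. APOBEC3G and APOBEC3C supplied most of the sum in both groups. The share of APOBEC3G was 50.3% ± 1.42 in OBF1 shRNA libraries and 52.9% ± 2.23 in control libraries (SD, n = 3), and the ranges overlapped. With the deposited lengths, the share of APOBEC3C was 39.2% ± 1.92 with the OBF1 hairpin and 34.3% ± 2.50 with the control hairpin (SD, n = 3). Its lowest OBF1 shRNA library, at 37.5%, lay just above its highest control library, at 37.1%.

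**Figure D3:**
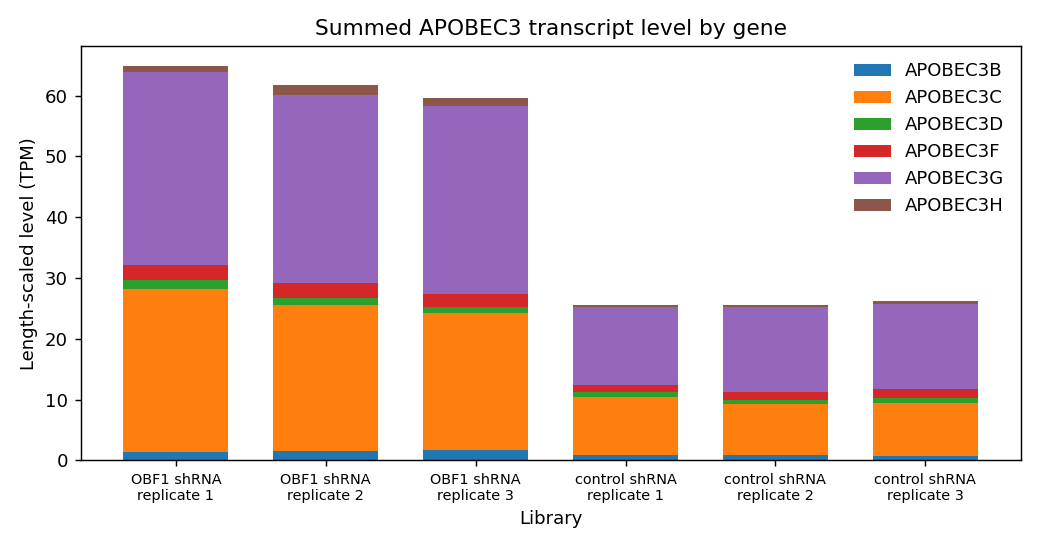
Length-scaled level (TPM) of the 6 APOBEC3 transcripts, stacked by gene in each library, OBF1 shRNA libraries on the left. The stacks reach between 59.7 and 64.9 TPM with the OBF1 hairpin and between 25.6 and 26.3 TPM with the control hairpin, and APOBEC3G and APOBEC3C make up most of each.

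Whether the genes changed to the same extent was examined with the count of each relative to APOBEC3G in the same library, a ratio that needs no scaling between libraries. APOBEC3F had 0.140, 0.138 and 0.127 reads per APOBEC3G read in OBF1 shRNA libraries and 0.158, 0.166 and 0.176 in control libraries. APOBEC3D had 0.0345, 0.0328 and 0.0260 with the OBF1 hairpin and 0.0534, 0.0375 and 0.0502 with the control hairpin. Both ratios were lower in every OBF1 shRNA library than in any control library. The log2 ratio differed by -0.30 for APOBEC3F and by -0.59 for APOBEC3D (exact two-sided permutation test, p = 0.1 each, the smallest that 3 against 3 libraries allow, and adjusted p = 0.2 over 5 ratios). For APOBEC3B, APOBEC3C and APOBEC3H the ranges overlapped, with differences in log2 ratio of -0.28, 0.27 and 0.56 (exact permutation p = 0.2 each, adjusted p = 0.2). With 3 libraries a group, this test cannot pass a threshold of 0.05.

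The genes on each side of the cluster were also looked at, using gene order in the RefSeq table of GRCh38.p14. CBX7, a Polycomb chromobox gene and the next protein-coding gene after APOBEC3H, rose 2.12-fold, at 32.4 ± 1.18 CPM with the OBF1 hairpin and 15.3 ± 1.23 CPM with the control hairpin (SD, n = 3, adjusted p in edgeR's quasi-likelihood test = 8.38e-12). CBX6, its relative on the other flank, rose 1.25-fold to 107 ± 3.82 CPM with the OBF1 hairpin, against 85.5 ± 4.99 CPM with the control hairpin (SD, n = 3). Further out, the ribosomal protein gene RPL3 rose 1.39-fold and GTPBP1 1.21-fold. The dynein light chain gene DNAL4 fell 1.60-fold and the nuclear envelope gene SUN2 1.33-fold. TAB1, encoding a partner of the kinase TAK1, rose 1.10-fold, a call that library sizes alone did not give (edgeR adjusted p = 0.499). NPTXR, PDGFB and SYNGR1 had too few reads to be tested. Of the 10 flanking genes, 5 thus rose and 2 fell. Among the 7 tested, CBX7 alone changed by at least 2-fold. In all tested genes 75.4% were called, 37.5% higher and 37.9% lower, and 6.59% were called higher by at least 2-fold. Whether the APOBEC3 change extended to the flanking genes was not tested.

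**Figure D4:**
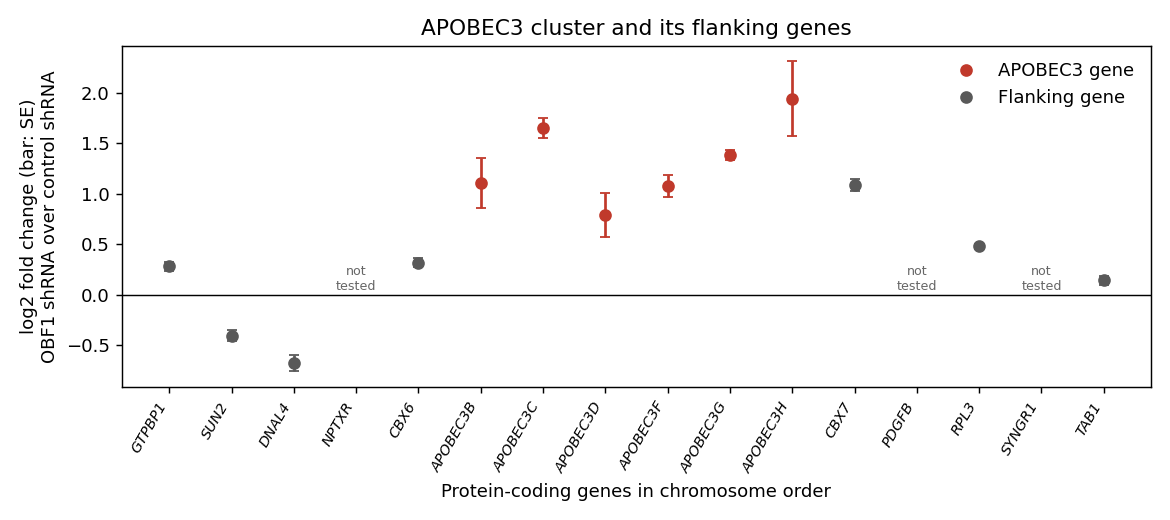
Log2 fold change with its standard error, OBF1 shRNA over control shRNA, for the 6 APOBEC3 genes in red and 5 protein-coding genes on each side in grey, in chromosome order and not to distance. APOBEC3A, which precedes APOBEC3B and had 0 reads, is not drawn. CBX7 at 1.08 lies among the APOBEC3 values, and the other tested flanking genes lie between -0.68 and 0.48.

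For each APOBEC3 gene, the 2 most similar profiles were sought among 9605 other genes averaging 5 CPM or more, by Euclidean distance between centred log2 CPM over the 6 libraries. All points share the same 2 groups, so the measure mainly ranks genes by an equal difference between groups. For APOBEC3G the nearest were TSPAN33, a tetraspanin gene (distance 0.060), and CD74, the invariant chain of MHC class II (0.079). For APOBEC3C they were SCAMP5 and GDF11 (0.159 and 0.169), and for APOBEC3F PRXL2A and ARSB (0.127 and 0.142). APOBEC3B lay nearest to GSDMD, encoding the pore-forming protein gasdermin D, and PTPRCAP (0.170 and 0.171). APOBEC3D lay nearest to ETFRF1 and NFKBIZ (0.238 and 0.281). For APOBEC3H the nearest genes, POTEE and HLA-DRB3, both of families of near copies, were further away, at 0.490 and 0.521. The profile of APOBEC3H rests on 4 to 23 reads per library, so its distances include much counting error.

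Other deaminases of nucleotides and RNA were mostly higher. Of 17 listed genes, 9 were tested; 7 rose, 1 fell and ADAT2, a subunit of a tRNA deaminase named after its value was seen, was at 32.4 CPM in OBF1 shRNA cells and 32.0 CPM in control cells. The median log2 fold change was 0.33, against -0.01 for all tested genes, of which 37.5% were called higher and 37.9% lower. AMPD3, an AMP deaminase, rose 2.81-fold to 12.0 ± 0.476 CPM in OBF1 shRNA cells, against 4.27 ± 0.235 CPM in control cells, and AMPD2 rose 1.61-fold (SD, n = 3, edgeR adjusted p = 1.34e-11 and 3.46e-11). DCTD, which deaminates dCMP, rose 1.31-fold. CDADC1, named after its value was seen, fell by 0.75 on the log2 scale. APOBEC1, APOBEC2 and APOBEC4 had at most 2 reads in a library and were not tested.

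Host restriction factors, other genes that act against retroviruses, also rose more often than they fell. Of 18 listed, 13 were tested, with 9 higher, 3 lower and a median log2 fold change of 0.72. Among all tested genes, 37.5% were called higher and 37.9% lower. TRIM22 rose 3.86-fold, at 34.4 ± 2.06 CPM with the OBF1 hairpin and 8.92 ± 0.894 CPM with the control hairpin (SD, n = 3, edgeR adjusted p = 1.61e-14). BST2, the tetherin that holds back budding virus, rose 1.67-fold, and SAMHD1, which depletes nucleotides, rose 1.65-fold. SERINC3, SERINC5 and MARCHF8, named after their values were seen, fell by 0.62, 0.34 and 0.40 on the log2 scale. ZC3HAV1, also named after its value was seen, did not pass, at 179 CPM in OBF1 shRNA cells and 181 CPM in control cells. The 8 host proteins of the ubiquitin ligase that Vif recruits against APOBEC3 proteins divided evenly, with 3 higher, 3 lower and a median log2 fold change of -0.01. ARIH2 fell 1.40-fold and CBFB 1.47-fold, while NEDD8 rose 1.24-fold. CUL5 also fell, and ELOB and UBE2F also rose, all named after their values were seen.

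Genes of pathways known to induce APOBEC3 transcription changed mostly upward. Of 19 NF-κB and interferon pathway genes, 13 rose, 5 fell and STAT2, named after its value was seen, did not pass, with a median log2 fold change of 0.42. For comparison, 37.5% of all tested genes were called higher and 37.9% lower. NFKB2, the precursor of the non-canonical NF-κB subunit p52, rose 2.58-fold to 274 ± 5.30 CPM in OBF1 shRNA cells, against 106 ± 2.12 CPM in control cells, and NFKB1 rose 2.05-fold (SD, n = 3, edgeR adjusted p = 5.16e-18 and 5.85e-16). TYK2, a kinase of the interferon receptors, rose 2.81-fold. RELA, IKBKB, JAK1, IFNAR1 and IFNAR2, named after their values were seen, fell by 0.10 to 0.35 on the log2 scale. The DREAM complex and E2F factors, which are known to regulate APOBEC3B through the cell cycle, gave 5 higher and 8 lower of 15, with a median of -0.12. E2F4 rose 1.41-fold, TFDP2 fell 1.35-fold and FOXM1 fell 1.29-fold. Whether any of these changes bears on the APOBEC3 genes was not tested.

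Genes that handle deaminated DNA showed mostly small changes in both directions. Over all tested genes, 37.5% were called higher and 37.9% lower. Of 14 genes of uracil removal and base excision repair, 7 rose and 2 fell, with a median log2 fold change of 0.06; with library sizes alone 4 rose and 6 fell. PARP1, a sensor of DNA strand breaks, rose 1.22-fold, while the glycosylase gene MBD4 fell 1.47-fold (edgeR adjusted p = 5.68e-09 and 4.7e-10). UNG, the main uracil glycosylase, fell by 0.18 on the log2 scale, at 118 CPM in OBF1 shRNA cells against 133 CPM in control cells, and was named after its value was seen. Of 14 genes of mismatch recognition and translesion synthesis, 4 rose and 6 fell, with a median of -0.01, and with library sizes alone 1 rose. REV3L fell 1.26-fold, RAD18 fell 1.22-fold and POLH, a polymerase known for errors opposite A and T in antibody genes, rose 1.19-fold. Of 16 genes of end joining, 5 rose and 9 fell, with a median of -0.14. The histone gene H2AX rose 2.72-fold, at 83.9 ± 7.62 CPM in OBF1 shRNA cells against 30.8 ± 3.45 CPM in control cells (SD, n = 3), XRCC5 rose 1.39-fold and MDC1 fell 1.47-fold. Of 20 cofactors known from deamination of immunoglobulin genes, 6 rose and 9 fell, with a median of 0.01, and with library sizes alone 3 rose. Among them PTBP2 fell 1.72-fold, HSP90AA1 1.40-fold and SUPT4H1 1.39-fold.

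**Figure D5:**
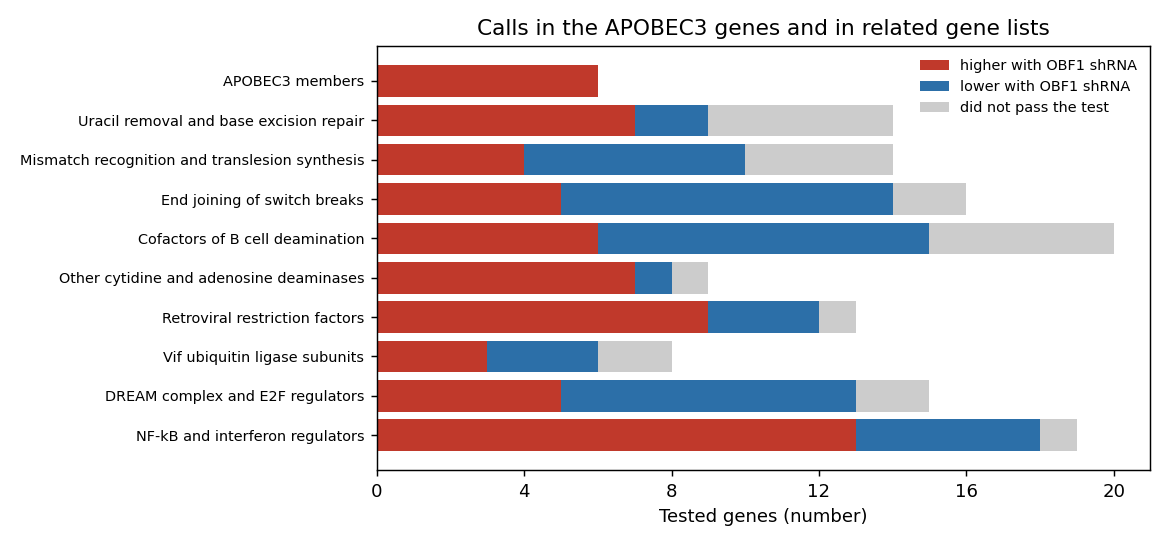
Number of tested genes called higher (red), called lower (blue) or not passing the test (grey) in OBF1 shRNA against control shRNA cells, for the APOBEC3 genes and 9 related lists. The 6 APOBEC3 genes are all red, the NF-κB and interferon list has 13 of 19 in red, and the repair lists hold both colours. Among the APOBEC3 genes, APOBEC3H was tested through its OBF1 shRNA libraries only. Over all tested genes, 37.5% were called higher and 37.9% lower.

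Markers of T and NK cells, of myeloid cells and of the 293T packaging line were low. The summed level of 8 T and NK cell markers was between 0.844 and 0.926 CPM in OBF1 shRNA libraries and between 0.0960 and 0.208 CPM in control libraries. CD3D, CD2 and GNLY were at 0 reads in all libraries, and NKG7, at 0.789 CPM in OBF1 shRNA and 0.144 CPM in control libraries, made up most of the sum and rose (edgeR adjusted p = 1.99e-05). NKG7 passed the low-count filter through its OBF1 shRNA libraries only, so its inclusion in the test already required a difference. The 8 myeloid markers summed to between 1.97 and 2.20 CPM with the OBF1 hairpin and between 1.90 and 1.98 CPM with the control hairpin, with S100A9 and MPO at 0. ITGAM rose to 1.30 CPM in OBF1 shRNA libraries, against 0.660 CPM in control libraries. LYZ fell to 0.157 CPM in OBF1 shRNA libraries, against 0.605 CPM in control libraries, and CSF1R did not pass. LYZ passed the low-count filter through its control libraries only, so its call has the same limit as that of NKG7. The 8 markers of the 293T packaging line summed to between 0.0704 and 0.230 CPM with the OBF1 hairpin and between 0.222 and 0.536 CPM with the control hairpin, and none could be tested. The summed B cell markers were between 4123 and 4179 CPM with the OBF1 hairpin and between 2456 and 2525 CPM with the control hairpin; MS4A1, CD22 and PAX5 rose 2.96-fold, 1.62-fold and 1.42-fold, and CD79B, named after its value was seen, fell.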

How the data were processed

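RNA was taken from 6 Raji libraries made with a stranded mRNA kit, per the labels' protocols, and groups and replicate numbers were read from the sample titles. The authors deposited raw read counts per gene and a gene length column in 1 table; all 6 count columns were used and 0 were left out. The submitters' processing notes list the builds hg19 and mm9; the sources used here do not state the aligner, counter, annotation or treatment of shared reads. Of 23459 rows, 23308 matched a symbol in the RefSeq table of GRCh38.p14.

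Counts were filtered with filterByExpr (min.count 10, min.total.count 15), scaled by TMM and compared by edgeR 4.0.16 in R 4.3.3 (glmQLFit, glmQLFTest, Benjamini-Hochberg over all 12010 tested genes, threshold 0.05). The SE is the log2 fold change divided by the square root of F. Total counts were between 29569281 and 32612429. Replicates of a group differed by more than sampling noise (chi-square per degree of freedom 1.84 to 3.17). Counts were also simulated with the same dispersion for every gene (biological coefficient of variation 0.027). At each fold 50 genes were changed, all expected to reach 10 control reads. With 11951 genes tested, 96% of genes changed 1.5-fold and 98% of those changed 2-fold were recovered, and 4.85% of called genes were false. APOBEC3H, with 4, 5 and 6 control reads, lies outside this setting, and far more genes were called in the data than were changed in the simulation.

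Members and gene lists were chosen with earlier results of these data known. Named genes are the 6 members, up to 3 genes per list with the smallest p, the 2 nearest profiles per member, 5 flanking genes per side, and POU2AF1, POU2F1 and POU2F2; other genes were named after their values were seen and are marked so, except cell markers and untested genes. A gene that this rule names in the uracil repair list is not reported here. Alternatives were DESeq2 1.42.0, voom in limma 3.58.1, library sizes alone, RLE and upper-quartile factors, 1 CPM in 3 libraries, no low-count filter, a replicate block and leaving out each library.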

Additional observations from a re-analysis of the deposited data

How the results depend on the processing

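All 6 APOBEC3 genes were called higher under each alternative that could test them. With 1 CPM in 3 libraries APOBEC3B and APOBEC3H were not tested and the 4 others were higher. APOBEC3D passed that filter through its OBF1 shRNA libraries only, so its call there adds no separate support. With the low-count filter of the main test, the same holds for APOBEC3H. Over the alternatives the log2 fold change lay between 0.995 and 1.19 for APOBEC3B, 1.55 and 1.71 for APOBEC3C, 0.68 and 0.91 for APOBEC3D, 0.97 and 1.14 for APOBEC3F, 1.28 and 1.42 for APOBEC3G, and 1.76 and 2.11 for APOBEC3H. The highest adjusted p was 0.0219, for APOBEC3D. The number of called genes, 9058, lay between 8344 with DESeq2 and 9547 without a low-count filter, and between 8632 and 8974 with 1 library left out. Same-numbered libraries did not deviate together (correlations -0.10 to 0.00), and no OBF1 shRNA library correlated best with its own number; with the replicate block there were 8759 calls and 6 APOBEC3 genes were higher.

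With library sizes alone, uracil repair genes gave 4 higher and 6 lower, mismatch and translesion genes 1 higher and deamination cofactors 3 higher. With 1 CPM in 3 libraries, 0 T and NK cell markers were higher, and 0 myeloid markers were higher or lower, because fewer were tested. CSF1R, which was not called, had a log2 fold change between -0.000128 and 0.66 with 1 library left out. Of 780 values of the 56 other named genes under the alternatives, 778 kept direction and call. Without length scaling, the share of the family's reads in OBF1 shRNA and control shRNA libraries was 1.58% and 1.91% for APOBEC3B, 17.4% and 14.4% for APOBEC3C, 9.27% and 11.4% for APOBEC3F, 68.7% and 68.4% for APOBEC3G, and 0.998% and 0.663% for APOBEC3H. Depth limits APOBEC3B, APOBEC3D and APOBEC3H, each with at most 117 reads summed over a group.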
